A study of Homo sapiens with 12 samples.

Results

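Transcription factors and splicing regulators that set epithelial identity were followed in MCF10A, an established, non-tumorigenic human breast epithelial cell line. The 8 transcription factors were TP63, GRHL2, GRHL3, OVOL1, OVOL2, ELF3, EHF and KLF5, and the 2 splicing regulators were ESRP1 and ESRP2. They were chosen by gene symbol, which gave 10 genes of the 62082 gene IDs in each table, and all 10 were present in both tables. In the GENCODE 29 annotation on GRCh38, GRHL3 and ELF3 lie on chromosome 1, TP63 on 3, GRHL2 and ESRP1 on 8, OVOL1 and EHF on 11, KLF5 on 13, ESRP2 on 16 and OVOL2 on 20.

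These genes hold cells in the epithelial state, with tight sheets, polarity and E-cadherin junctions. TP63 encodes p63, a relative of p53 that specifies basal epithelial cells. Grainyhead-like factors (GRHL2, GRHL3) activate junction genes, and the OVO-like zinc-finger factors (OVOL1, OVOL2) repress mesenchymal genes, among them ZEB1. ELF3 and EHF are ETS-family factors restricted largely to epithelia, and KLF5 is a Krüppel-like zinc-finger factor of proliferating basal epithelium. ESRP1 and ESRP2 bind pre-mRNA and favour the epithelial exons of genes such as FGFR2 and CD44. Loss of this set is a known feature of the epithelial-mesenchymal transition (EMT), in which ZEB1 and ZEB2, repressors that bind E-box motifs, are known to shut off epithelial genes and in turn to be held down by GRHL2 and OVOL factors.

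The 12 libraries formed 4 groups of 3. The p53 wild-type groups were MCF10A cells with the empty pBabepuro vector or with H-RasV12, an always-active Ras mutant, expressed stably from a retrovirus. The p53-deleted groups carried the same 2 kinds of construct in cells with a targeted deletion of p53 at exon 2. Cells of all groups were untreated and shared 1 medium, DME/F-12 plus horse serum and supplements, and their RNA was selected on oligo-dT beads. The study set each H-Ras line against the vector line made alongside it. Each group was 1 line, so an effect of H-Ras and any other difference of its line from the vector line cannot be told apart, and neither can p53 status and the pair of lines. The labels do not say that libraries came from separate cultures, so the spread behind each p-value may be a technical one.

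The deposited values were group means of normalized counts (reads per gene divided by a size factor of the library), and reads of single libraries were solved from the digits of those means. Libraries are called A, B and C in order of decreasing size factor, which says nothing of replicate numbers, and every SD (n = 3) rests on the solved values. Libraries held an estimated 7862341 to 10058191 reads. HRAS was higher in the H-Ras lines, 19.7-fold in p53 wild-type and 21.2-fold in p53-deleted cells, without overlap. In p53 wild-type cells, library A of the vector line and library C of the H-Ras line stood apart from their groups. The chi-square per degree of freedom over genes was 23.4 and 29 for vector A against the 2 remaining vector libraries and 26.9 and 29.2 for H-Ras C against the 2 remaining H-Ras libraries, against 2.33 to 12.2 for the other 8 pairs of libraries. Results in which these libraries take part were also computed without both of them. In bulk RNA, fewer cells that express a gene and less of its RNA per cell cannot be told apart.

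TP63 (ENSG00000073282) RNA was nearly lost with H-Ras in both backgrounds. In p53 wild-type cells it stood at 1238, 938 and 970.5 normalized counts in vector libraries A, B and C and at 0, 2.87 and 3.03 in the H-Ras libraries, which held 6 reads in all. In p53-deleted cells it stood at 999, 1066 and 1031 in the vector line and at 0.931, 3.04 and 2.06 in the H-Ras line. Every H-Ras library lay far below every vector library. The mean with H-Ras was 0.188% of the vector mean in p53 wild-type cells and 0.195% in p53-deleted cells. On the log2(normalized count + 1) scale, where changes of low genes come out too small, the fall in p53 wild-type cells was -8.70 ± 0.52 (SE) with a limma adjusted p of 4.58e-05 and in p53-deleted cells -8.49 ± 0.25 with an adjusted p of 5.76e-10. Both calls held under all 13 and all 12 alternative settings, respectively. TP63 reached the minimum of 10 normalized counts in 3 libraries through the vector libraries alone and so had to differ. The alternatives reuse the same libraries and are no separate support. The test of the difference between the 2 responses gave 0.22 ± 0.62 on the log2 scale (95% confidence interval -1.14 to 1.57, adjusted p = 0.846), so a difference within that interval was not detectable here. The vector lines overlapped in TP63, and the p53-deleted minus p53 wild-type difference was -0.17 (95% confidence interval -1.15 to 0.80, adjusted p = 0.811). Gene counts cannot separate the p63 forms made from different start sites.

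**Figure D1:**
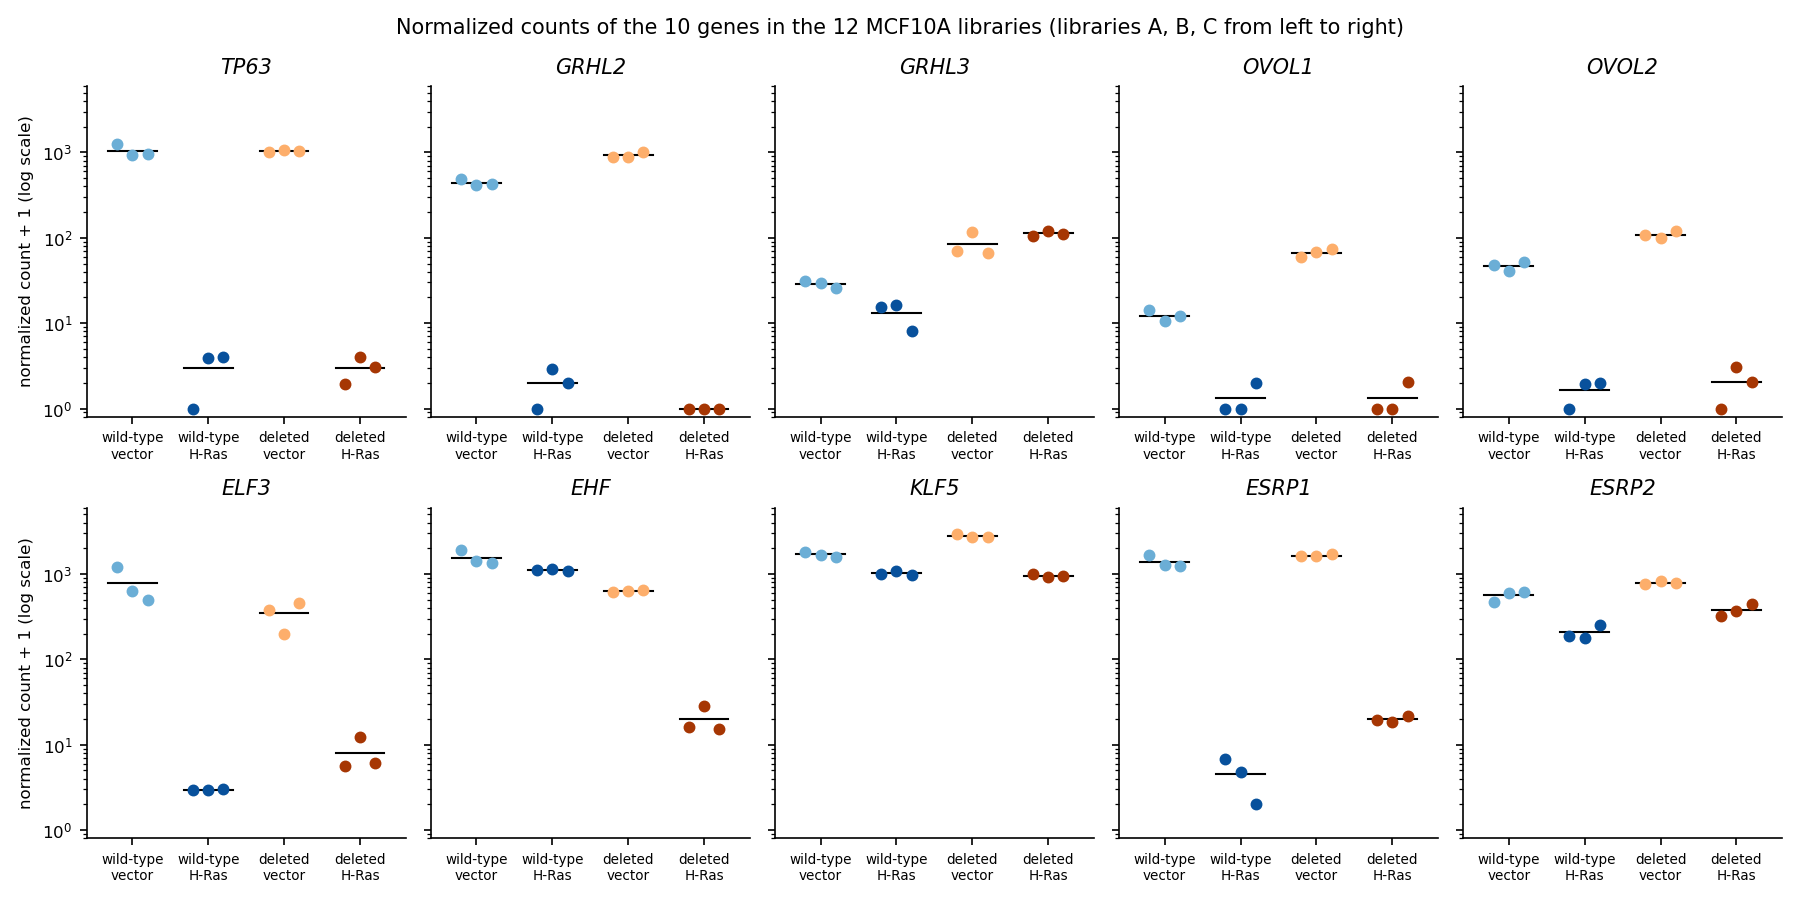
Normalized count plus 1 of each gene on a log axis, with 1 point for each of the 3 libraries of a group and a line at the group mean. Before the 1 is added, TP63, GRHL2, OVOL1, OVOL2, ELF3 and ESRP1 are at 20.6 normalized counts or lower in every H-Ras library. On that same count, EHF has a mean of 18.9 in the p53-deleted H-Ras group against 1114 in the p53 wild-type one, and the lowest ESRP2 library is at 179.

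GRHL2 (ENSG00000083307) RNA fell from at least 411 normalized counts per vector library to 3 reads or fewer per H-Ras group in both backgrounds, while its relative GRHL3 fell in p53 wild-type cells and missed the threshold in p53-deleted cells. GRHL2 stood at 492, 411 and 420.4 normalized counts in the p53 wild-type vector libraries and at 0, 1.91 and 1.01 with H-Ras. The p53-deleted libraries had 880.2, 872 and 1015 in the vector line, and no read was found in any of the 3 H-Ras libraries. The vector libraries held 1327 reads against 3 in p53 wild-type cells, a ratio of 457 after scaling (95% interval 156 to 2218, counting error only). Against 2772 reads in the p53-deleted vector line, 0 reads give a level at least 929-fold lower, with the floor set at 3 reads over the group. For p53 wild-type and p53-deleted cells the limma adjusted p was 1.99e-05 and 3.18e-11, and both held under every alternative run. In both backgrounds GRHL2 reached the minimum through the vector libraries alone and so had to differ. The size of the difference between the responses, -1.91 ± 0.44 on the log2 scale with an adjusted p of 0.0113, depends on the pseudocount for a gene with so few H-Ras reads. It ranged from -2.35 to -1.36 over the 18 alternatives, and with precision weights (voom) its adjusted p was 0.0519.

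GRHL3 (ENSG00000158055), which is best known for its part in forming the skin barrier, was at 119 normalized counts or lower in every library. In p53 wild-type cells it stood at 29.8, 28.4 and 24.6 normalized counts in the vector libraries and at 14.3, 15.3 and 7.08 with H-Ras, without overlap. The p53-deleted values were 68.6, 117 and 66.0 in the vector line and at 105, 119 and 110.3 with H-Ras, and these groups overlapped. The p53 wild-type fall was -1.18 ± 0.33 on the log2 scale with an adjusted p of 0.0382, and it failed the threshold in 6 of 13 alternatives, with adjusted p up to 0.117, among them leaving out vector A, B or C or H-Ras A or B. The authors' deposited table gives an adjusted p of 0.0803 for it. The p53-deleted difference was 0.45 ± 0.21 with an adjusted p of 0.0873, which missed the threshold. Without p53-deleted vector library B, the highest of its group, that difference was 0.72 with an adjusted p of 0.00275. The 2 responses differed by 1.63 ± 0.40 on the log2 scale (adjusted p = 0.0161), under all 18 alternatives, and by 1.25 with an adjusted p of 0.0174 without wild-type vector A and H-Ras C. On a scale common to the 12 libraries, the p53-deleted line had 2.72-fold more GRHL3 than the p53 wild-type line with vector (adjusted p = 0.00271) and 8.16-fold more with H-Ras (adjusted p = 5.25e-06). Reads were not stated to be counted by strand, and GRHL3 lies across from STPG1 in the GENCODE annotation. STPG1 had no call in any of the 5 comparisons, with adjusted p between 0.058 and 0.657. The part of STPG1 in the GRHL3 values was not tested.

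OVOL1 (ENSG00000172818) and OVOL2 (ENSG00000125850) had 3 reads or fewer per group with H-Ras. Per kilobase of annotated exons, their levels and that of GRHL3 were the 3 lowest of the 10 genes in the p53 wild-type vector line, at 3.07, 22.3 and 7.36 normalized counts. OVOL1 had 15, 9 and 10 reads in the p53 wild-type vector libraries and 0, 0 and 1 with H-Ras. It was not tested there because only 2 of 3 vector libraries reached the minimum of 10 normalized counts. The ratio of vector to H-Ras was 35.1 (95% interval 5.89 to 1427, counting error only), and the authors' deposited table gives an adjusted p of 0.000157. In p53-deleted cells OVOL1 stood at 58.0, 67.4 and 73.4 normalized counts in the vector line, and 1 read in 3 libraries was left with H-Ras, a ratio of 200.2 (95% interval 35.5 to 7945) with a limma adjusted p of 2.2e-07. The test of the difference between the OVOL1 responses gave -2.45 ± 0.55 on the log2 scale (adjusted p = 0.0101), but both H-Ras groups held 1 read, so that value rests on the vector levels and the pseudocount. OVOL1 was 5.26-fold higher in the p53-deleted than in the p53 wild-type vector line (adjusted p = 0.000608), which held under all 18 alternatives.

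OVOL2 stood at 47.3, 40.0 and 51.4 normalized counts in the p53 wild-type vector libraries and had 0, 1 and 1 reads with H-Ras. In p53-deleted cells it stood at 106, 97.7 and 121 in the vector line and had 0, 2 and 1 reads with H-Ras. The ratio of vector to H-Ras was 71.3 (95% interval 19.4 to 594) and 109 (95% interval 37.0 to 531), with limma adjusted p of 0.000141 and 2.55e-07, called under every alternative. In both backgrounds OVOL2 reached the minimum through the vector libraries alone and so had to differ. The difference between the responses was -0.99 ± 0.57 on the log2 scale (95% confidence interval -2.22 to 0.23, adjusted p = 0.249), and with a pseudocount of 4 its adjusted p was 0.0259. The H-Ras groups held 2 and 3 reads, so this value, too, rests on the vector levels and the pseudocount. The vector lines did not overlap in OVOL2, and the p53-deleted line was 2.09-fold higher, with an adjusted p of 0.0606 that misses the threshold and fell below it in 6 of 18 alternatives. The annotated OVOL2 gene overlaps SNX5 on its own strand and MGME1 on the other, and both neighbours were also higher in the p53-deleted vector line, SNX5 2.16-fold (adjusted p = 0.000163) and MGME1 2.28-fold (adjusted p = 0.000272). In p53-deleted cells both neighbours fell with H-Ras, SNX5 by 1.19 and MGME1 by 1.38 on the log2 scale (adjusted p = 4.19e-07 and 6.18e-07), and in p53 wild-type cells neither was called (adjusted p = 0.137 and 0.480). The part of these neighbours in the OVOL2 values was not tested.

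ELF3 (ENSG00000163435) fell to a few reads with H-Ras in both backgrounds. It stood at 1208, 626 and 487 normalized counts in the p53 wild-type vector libraries and at 1.91, 1.91 and 2.02 with H-Ras. Among p53-deleted libraries it stood at 378, 198 and 454 in the vector line and at 4.65, 11.2 and 5.15 with H-Ras. The groups did not overlap in either background, but vector library A of the p53 wild-type line was 2.17 times the mean of the other 2. The fall was -7.93 ± 0.33 on the log2 scale (adjusted p = 1.08e-05) in p53 wild-type and -5.44 ± 0.35 (adjusted p = 2.04e-07) in p53-deleted cells. The responses differed by 2.49 ± 0.55 (adjusted p = 0.00902), and by 2.13 with an adjusted p of 0.00927 without wild-type vector A and H-Ras C. The voom fit gave 2.67 with an adjusted p of 0.245. ELF3 was 2.52-fold higher in the p53 wild-type than in the p53-deleted vector line (adjusted p = 0.0207), and that call was lost without p53 wild-type vector A (adjusted p = 0.0834), without p53 wild-type vector A and H-Ras C together (adjusted p = 0.0549) and without p53-deleted vector B (adjusted p = 0.0965).

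EHF (ENSG00000135373) had the widest gap between backgrounds of the 10 genes. In p53 wild-type cells it stood at 1895, 1413 and 1355 normalized counts in the vector libraries and at 1122, 1142 and 1077 with H-Ras. In p53-deleted cells it stood at 611, 630.1 and 645 in the vector line and at 14.9, 27.4 and 14.4 with H-Ras. EHF with H-Ras was 71.6% of the vector level in p53 wild-type cells and 3.01% in p53-deleted cells. The p53-deleted fall was -5.04 ± 0.21 on the log2 scale (adjusted p = 1e-08). The p53 wild-type fall was -0.46 ± 0.14 with an adjusted p of 0.0481, which failed the threshold in 7 of 13 alternatives (adjusted p up to 0.131), among them leaving out vector B or C or any 1 H-Ras library. The authors' deposited table gives an adjusted p of 0.204 for it. With both vector A and H-Ras C left out, a setting with more calls over all genes, it was -0.29 with an adjusted p of 0.00564. The responses differed by -4.58 ± 0.28 (adjusted p = 1.31e-06), the 16th lowest of the 13240 genes tested for that difference, and the call held under all 18 alternatives. EHF was also lower in the p53-deleted than in the p53 wild-type line with vector, by -1.45 ± 0.20 on the log2 scale (adjusted p = 0.00013), and with H-Ras, by -6.02 ± 0.20 (adjusted p = 1.01e-09), which is a 65.7-fold ratio of means.

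**Figure D2:**
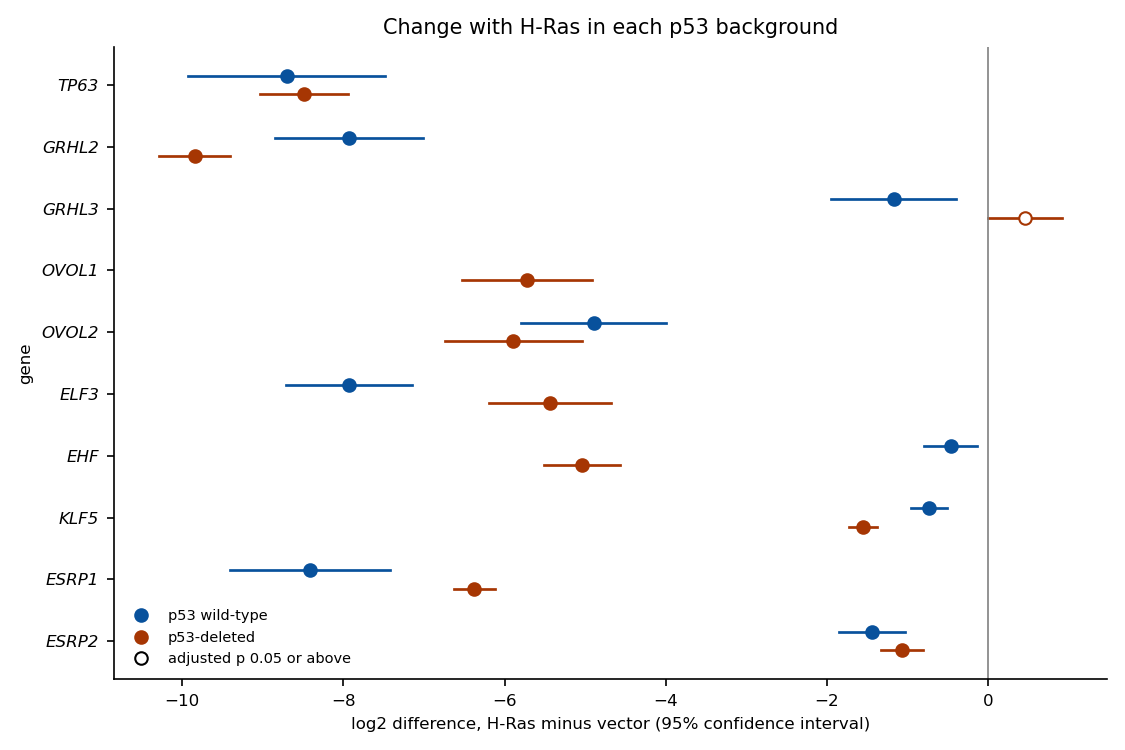
Log2 difference between the H-Ras and the vector line of each p53 background for each gene, with 95% confidence intervals over 6 libraries, and open points at adjusted p of 0.05 or above. EHF lies at -0.46 in p53 wild-type and -5.04 in p53-deleted cells, GRHL3 lies on both sides of 0, and OVOL1 has no p53 wild-type point because it was not tested.

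Promoter sequence was looked up for the 10 genes, since ZEB and SNAI factors are known to bind the E-box CAGGTG, which reads CACCTG on the other strand. The RefSeq promoter table on GRCh38.p14 was matched for 5 of the 10 (TP63, GRHL3, ELF3, EHF and KLF5) with 8 start sites, and not for GRHL2, OVOL1, OVOL2, ESRP1 and ESRP2, and the 250 bases before each start were read on the gene's own strand. The E-box was present before 2 of the 8 starts, against 17.5% of all 35116 promoters in the table. It lay 120 bases before the ELF3 start (chr1:202010337-202010586, plus strand) and 21 bases before the first GRHL3 start (chr1:24319107-24319356, plus strand), and none was found before the first EHF start (chr11:34624007-34624256, plus strand). These 3 are shown because the genes differed in response: ELF3 fell in both backgrounds, GRHL3 stood at 44.3% and 133% of its vector level with H-Ras, and EHF at 71.6% and 3.01%. Capitals mark the E-box, and the letters run 5′ to 3′ up to the base before the start.
ELF3: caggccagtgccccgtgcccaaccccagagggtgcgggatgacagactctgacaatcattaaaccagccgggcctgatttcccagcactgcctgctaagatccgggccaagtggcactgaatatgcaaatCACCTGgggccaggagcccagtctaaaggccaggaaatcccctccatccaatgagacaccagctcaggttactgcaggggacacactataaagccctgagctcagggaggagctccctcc
GRHL3: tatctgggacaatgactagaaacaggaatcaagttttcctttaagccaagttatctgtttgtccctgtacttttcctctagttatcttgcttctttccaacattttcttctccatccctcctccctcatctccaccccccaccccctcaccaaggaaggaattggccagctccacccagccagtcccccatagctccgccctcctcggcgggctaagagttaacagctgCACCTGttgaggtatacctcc
EHF: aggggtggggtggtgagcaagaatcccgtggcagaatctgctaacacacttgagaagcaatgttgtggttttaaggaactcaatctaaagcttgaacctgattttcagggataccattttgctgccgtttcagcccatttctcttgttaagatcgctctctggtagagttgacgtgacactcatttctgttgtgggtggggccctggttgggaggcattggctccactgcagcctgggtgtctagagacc
The GRHL core motif ACCGGTT, which reads AACCGGT on the other strand, was in none of the 8 windows and in 0.626% of all promoters. A match describes letters in a window and was not tied to the level of any gene.

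KLF5 (ENSG00000102554) was the most abundant of the 10 per kilobase of annotated exons in all 4 groups and was reduced, not lost, with H-Ras. It stood at 1803, 1682 and 1592 normalized counts in the p53 wild-type vector libraries and at 999, 1079 and 978 with H-Ras. The p53-deleted cells had 2953, 2682 and 2734 in the vector line and at 1002, 909 and 945 with H-Ras. The groups of each background were clearly separated and varied little within themselves. KLF5 with H-Ras was 60.2% of the vector level in p53 wild-type cells (-0.73 ± 0.10 on the log2 scale, adjusted p = 0.0015) and 34.1% in p53-deleted cells (-1.55 ± 0.08, adjusted p = 3.83e-08). The responses differed by -0.82 ± 0.12 (adjusted p = 0.000619), under all 18 alternatives. The p53-deleted vector line was 1.48-fold higher in KLF5 than the p53 wild-type one (adjusted p = 0.000239). The p53-deleted H-Ras line was at 83.8% of the p53 wild-type H-Ras line (adjusted p = 0.0311), a call lost in 6 of 18 alternatives, among them total-read scaling and leaving out H-Ras A or B of the p53 wild-type or H-Ras B or C of the p53-deleted line, with adjusted p up to 0.116.

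ESRP1 (ENSG00000104413) and ESRP2 (ENSG00000103067), which overlap in function, were lowered to very different depths. ESRP1 stood at 1667, 1259 and 1233 normalized counts in the p53 wild-type vector libraries and at 5.73, 3.82 and 1.01 with H-Ras. In p53-deleted cells it stood at 1623, 1608 and 1695 in the vector line and at 18.6, 17.2 and 20.6 with H-Ras. The vector lines overlapped, while every p53-deleted H-Ras library was above every p53 wild-type one. ESRP1 with H-Ras was 0.254% of the vector level in p53 wild-type cells (-8.41 ± 0.42 on the log2 scale, adjusted p = 2.13e-05) and 1.15% in p53-deleted cells (-6.38 ± 0.12, adjusted p = 1.54e-11). The difference between the responses was 2.04 ± 0.46 (adjusted p = 0.0103) and held under all 18 alternatives, at 1.40 (adjusted p = 0.000581) without wild-type vector A and H-Ras C. With H-Ras, ESRP1 was 4.78-fold higher in the p53-deleted than in the p53 wild-type line (adjusted p = 0.00024).

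ESRP2 stood at 473, 593 and 613 normalized counts in the p53 wild-type vector libraries and at 186, 179 and 254 with H-Ras. With p53 deleted it was 760.4, 829 and 779 in the vector line and at 320.2, 369 and 448 with H-Ras. All H-Ras libraries were lower than the vector libraries of their background, yet well above the floor. ESRP2 with H-Ras was 36.8% of the vector level in p53 wild-type cells (-1.44 ± 0.18, adjusted p = 0.00104) and 48.0% in p53-deleted cells (-1.07 ± 0.12, adjusted p = 1.67e-05). The difference between the responses was 0.38 ± 0.22 (95% confidence interval -0.11 to 0.86, adjusted p = 0.27), and without wild-type vector A and H-Ras C it was 0.65 with an adjusted p of 0.015. The p53-deleted H-Ras line was 1.65-fold above the p53 wild-type one (adjusted p = 0.00288). Per kilobase, ESRP1 was the more abundant of the pair in both vector lines, at 299 against 106 normalized counts in p53 wild-type cells, and ESRP2 was the more abundant in both H-Ras lines, at 39.2 against 0.767. In p53-deleted cells the same levels were 316 against 133 with vector and 3.67 against 64.8 with H-Ras. NFATC3, on the strand across from ESRP2, had no call in any of the 5 comparisons (adjusted p 0.0619 to 0.992). Its part in the ESRP2 values was not tested.

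Counted over the genes, 9 were tested in p53 wild-type cells and all 9 were called lower with H-Ras, where 12.7% of all 12446 genes tested were called lower. Without p53 wild-type vector A and H-Ras C the same 9 were called, where 29.6% of all genes were. In p53-deleted cells 9 of 10 were called lower, where 28.3% of 12764 genes were. TP63, GRHL2, OVOL2, ELF3 and ESRP1 in p53 wild-type cells, and TP63, GRHL2, OVOL1 and OVOL2 in p53-deleted cells, reached the minimum count through the vector libraries alone and so had to differ, and these counts are given as a description. With no minimum, 8 of 10 in p53 wild-type and 9 of 10 in p53-deleted cells were called lower, where 6.84% of 23201 and 15.9% of 23534 genes were. The test of the difference between the 2 responses was passed by 7 of 10, where 17.2% of 13240 genes were called. For 2 of the 7, GRHL2 and OVOL1, both H-Ras groups held 3 reads or fewer, so the value rests on the vector levels and the pseudocount and measures no difference of responses. Of the other 5, EHF and KLF5 had the more negative H-Ras minus vector difference in p53-deleted cells, a direction called for 7.92% of all genes. ELF3, ESRP1 and GRHL3 had it in p53 wild-type cells, a direction called for 9.27%.

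Between the vector lines 6 of 10 were called, where 33.0% of 13203 genes were. GRHL2, GRHL3, OVOL1 and KLF5 were higher and ELF3 and EHF lower in the p53-deleted line, beside 16.2% and 16.9% of all genes called higher and lower. The GRHL2 difference, 0.90 ± 0.32 on the log2 scale or a 1.87-fold ratio of means, had an adjusted p of 0.0454 and failed the threshold in 11 of 18 alternatives (adjusted p up to 0.139), among them leaving out any library of either vector line or of the p53-deleted H-Ras line. Between the H-Ras lines 7 of 10 were called, where 37.3% of 13203 genes were. GRHL3, ELF3, ESRP1 and ESRP2 were higher and GRHL2, EHF and KLF5 lower in the p53-deleted line, beside 19.2% and 18.2% of all genes. The GRHL2 call there (adjusted p = 0.0458) rests on 3 reads against 0, both at or under the floor, and was lost in 15 of 18 alternatives. ELF3 was 3.22-fold higher there (adjusted p = 0.0247), a call lost in 5 of 18 alternatives (adjusted p up to 0.504), including without p53 wild-type H-Ras A or B and without p53-deleted H-Ras B. All 3 kinds of comparison share libraries with one another.

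**Figure D3:**
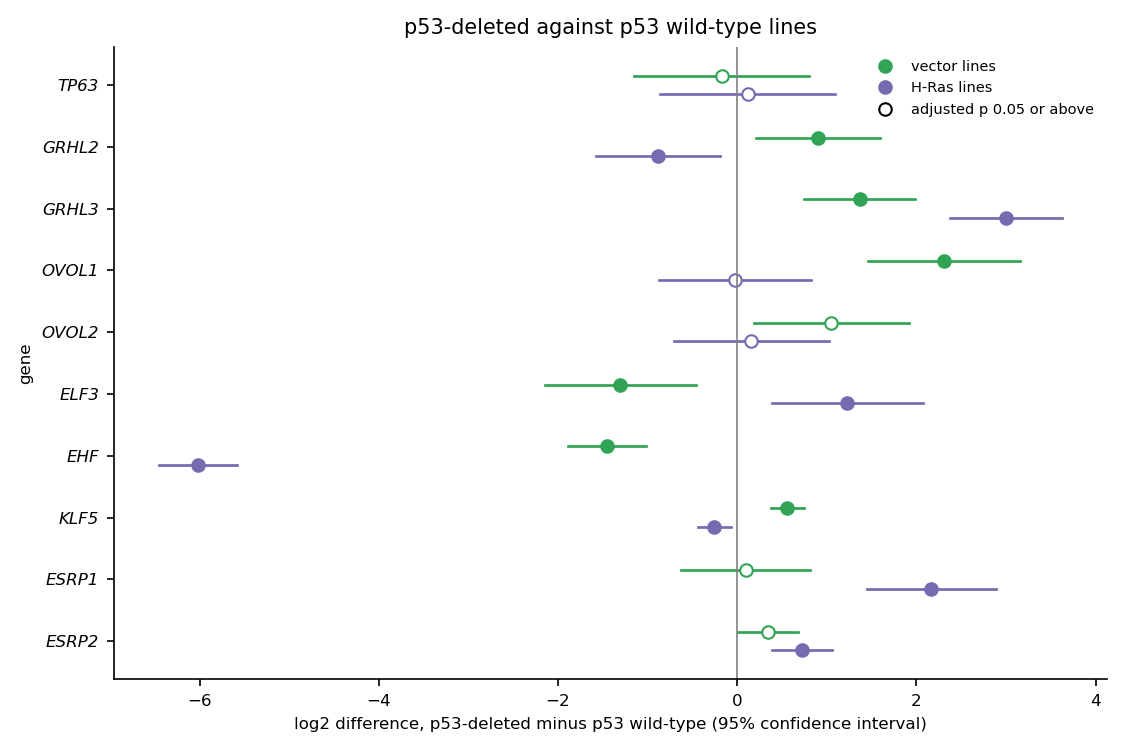
Log2 difference of the p53-deleted minus the p53 wild-type line for each gene, for the vector lines and the H-Ras lines, on a scale common to the 12 libraries, with 95% confidence intervals and open points at adjusted p of 0.05 or above. EHF lies lowest with H-Ras at -6.02, and GRHL3 highest with H-Ras at 3.00.

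The order of the 4 groups was not the same for all genes. On the common scale, GRHL2, OVOL1, OVOL2, KLF5, ESRP1 and ESRP2 were highest in the p53-deleted vector line, TP63, ELF3 and EHF in the p53 wild-type vector line, and GRHL3 in the p53-deleted H-Ras line. The highest group and the next one overlapped for TP63, ESRP1 and GRHL3. They did not overlap for OVOL2, EHF and ESRP2 but missed the threshold in the fit over 12 libraries (adjusted p = 0.0606, 0.0964 and 0.113). EHF was the only one of the 10 whose p53 wild-type H-Ras line, at 1180 ± 43 normalized counts on the common scale (SD, n = 3), lay above a vector line, the p53-deleted one at 590.5 ± 16 (adjusted p = 0.00114). The GRHL3 mean of the p53-deleted H-Ras line, 106 ± 7, was above that of the p53-deleted vector line, 78.9 ± 27, with overlap and an adjusted p of 0.201 on this scale.

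Genes with the most similar profiles over the 12 libraries were found among 9661 genes by the root-mean-square difference of centred log2 values. LAD1 and FXYD3, known from basement membrane and ion transport, and the microRNA host gene MIR205HG were nearest to TP63, at 0.56, 0.71 and 0.72 on the log2 scale. RAB25, an epithelial vesicle-trafficking GTPase, was nearest to GRHL2 at 0.44, followed by MIR205HG and FXYD3. AIM1L, CD24P4 and LAMA3 were nearest to OVOL2, at 0.51 to 0.59, and CD24P4 is a near copy of CD24 with which it may share reads. CDH1, which encodes E-cadherin, and AP1M2, an epithelial clathrin-adaptor subunit, were nearest to ESRP1 at 0.43 and 0.47, with S100A14 at 0.73. CLTB, EGFR and ITCH were within 0.13 to 0.16 of KLF5. The profiles nearest to EHF, among them those of CCND2 and STAT4, were farther off, at 0.94 and 1.13. CCND2, which encodes cyclin D2, stood at 1293 with vector and 336 with H-Ras where p53 was wild-type, and at 90.8 and 7.16 in p53-deleted cells, in normalized counts on the common scale. STAT4 stood at 100 and 198 in p53 wild-type cells, opposite in direction to EHF, and at 43.0 and 5.36 in p53-deleted cells.

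The EMT regulators that oppose these factors were examined as a list of 11, of which 10 passed the minimum. With H-Ras, 4 rose and 0 fell in p53 wild-type cells, where 12.9% of all genes tested rose and 25.6% were called in either direction, and 8 rose and 1 fell in p53-deleted cells, where 27.7% rose and 56.1% were called. The median log2 difference of the list was 0.911 and 1.597, beside medians of -0.02 and 0.01 over all genes tested. In p53-deleted cells ZEB1 and SNAI3 reached the minimum in no vector library and so had to differ. ZEB1 rose from 23.6 ± 12.5 to 596 ± 45 normalized counts (SD, n = 3) in p53 wild-type cells and from 4.94 ± 1.85 to 452 ± 42 in p53-deleted cells (adjusted p = 8.06e-05 and 3.67e-09). ZEB2 rose from 11.9 ± 1.7 to 361 ± 86 and from 14.3 ± 3.3 to 317 ± 16 (adjusted p = 1.95e-05 and 1.06e-08). FOXC2, a forkhead factor, rose by 2.20 and 2.86 on the log2 scale (adjusted p = 0.000383 and 1.41e-06), and SNAI3 by 2.89 in p53-deleted cells (adjusted p = 4.05e-05). SNAI2, which encodes the repressor Slug, moved in opposite directions. It rose from 349 ± 20 to 916 ± 104 in p53 wild-type cells (adjusted p = 0.000228) and fell from 806 ± 79 to 271 ± 55 in p53-deleted cells (adjusted p = 2.44e-06), and the difference between these responses was -2.97 ± 0.20 on the log2 scale (adjusted p = 2.56e-06).

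Of 12 paralogs of the 10 genes, 10 were tested in p53 wild-type cells, where 1 rose and 4 fell, and 9 in p53-deleted cells, where 1 rose and 8 fell. Of all genes tested, 12.9% rose and 12.7% fell in p53 wild-type cells and 27.7% rose and 28.3% fell in p53-deleted cells. The list medians were -0.21 and -0.71 on the log2 scale. In p53 wild-type cells GRHL1 and SPDEF reached the minimum in no H-Ras library and so had to differ. With no minimum, 1 rose and 4 fell of 11 in p53 wild-type cells, and 1 rose and 7 fell of 10 in p53-deleted cells. At that setting 6.84% and 15.9% of all genes fell. GRHL1, the third grainyhead-like gene, fell from 45.9 ± 12.8 to 2.30 ± 1.58 normalized counts in p53 wild-type cells and from 70.9 ± 14.8 to 10.2 ± 6.6 in p53-deleted cells (adjusted p = 0.000584 and 9.63e-05). KLF4 rose in both, by 0.84 and 1.35 on the log2 scale (adjusted p = 0.0314 and 0.000407), and the p53 wild-type call was lost in 4 of 13 alternatives. SPDEF, an ETS factor of secretory epithelium, had reads in the p53 wild-type vector line, at 62.0 ± 20.7 normalized counts, and 0 reads in the other 3 groups. TP73 fell by 1.84 in p53 wild-type cells (adjusted p = 0.0196, lost in 3 alternatives) and fell by 0.81 in p53-deleted cells (adjusted p = 0.0202, lost in 4). TFCP2L1 fell by 1.21 and fell by 0.91 in the same order (adjusted p = 0.000527 and 0.000172). ELF4 fell by 0.84 in p53-deleted cells (adjusted p = 2.33e-05), and its p53 wild-type difference was -0.15 (adjusted p = 0.373).

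Of 13 other epithelial transcription factors, 11 were tested, and 1 rose and 8 fell in p53 wild-type cells and 1 rose and 7 fell in p53-deleted cells, beside the 12.7% and 28.3% of all genes that fell, with medians of -0.63 and -0.65. FOXA1, a luminal pioneer factor, fell by 3.29 ± 0.29 and 1.88 ± 0.15 on the log2 scale (adjusted p = 0.000253 and 1.63e-06). SOX9 fell by 1.75 in p53 wild-type cells (adjusted p = 0.000597), and its p53-deleted difference was 0.07 (adjusted p = 0.756). VDR fell by 0.62 in p53 wild-type and fell by 1.21 in p53-deleted cells (adjusted p = 0.00221 and 1.74e-05). TRPS1 rose by 0.98 and 1.43 (adjusted p = 0.0145 and 5.72e-07), with the former lost in 4 of 13 alternatives.

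**Figure D4:**
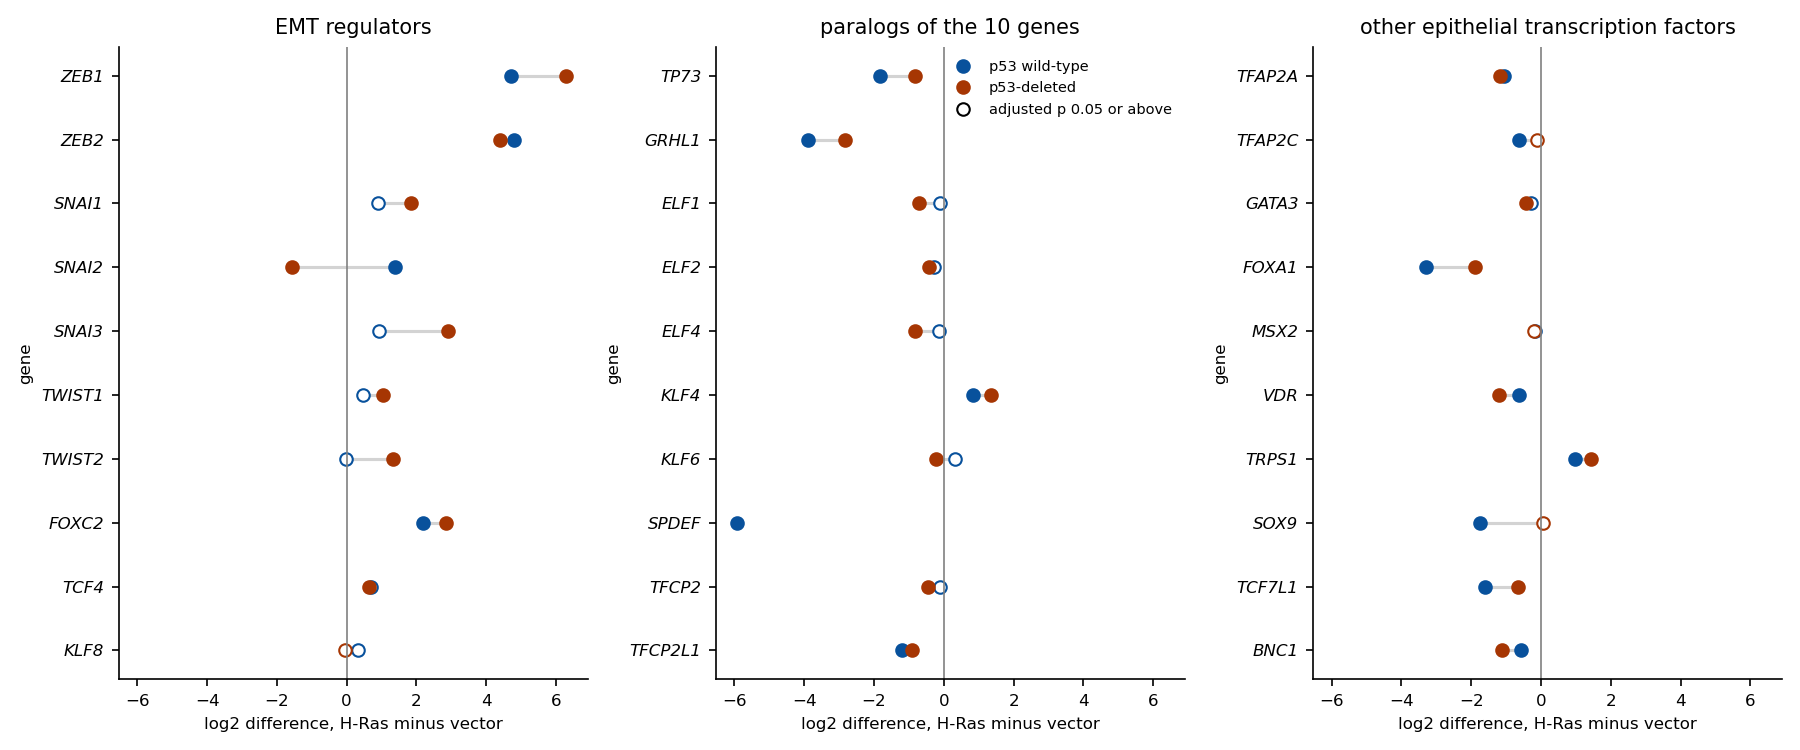
Log2 difference between the H-Ras and the vector line for EMT regulators, paralogs of the 10 genes and 10 of the 11 tested other epithelial transcription factors, with 1 row per gene, 1 colour per p53 background and open points at adjusted p of 0.05 or above. ZEB1 and ZEB2 lie between 4.40 and 6.30 in both backgrounds, and SNAI2 lies at 1.39 and -1.58.

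Among 14 epithelial genes known to depend on GRHL2, OVOL or ESRP factors, 0 rose and 12 fell in p53 wild-type cells and 0 rose and 11 fell in p53-deleted cells, beside 12.7% and 28.3% of all genes that fell, with medians of -3.55 and -2.09 on the log2 scale. RAB25 and MARVELD3 in both backgrounds and TJP3 in p53 wild-type cells reached the minimum in no H-Ras library and so had to differ. With no minimum, 12 and 11 of the 14 fell, where 6.84% and 15.9% of all genes did. The largest falls were those of CDH1, the GTPase gene RAB25 and the tight-junction gene MARVELD3. RAB25 stood at 779.7 ± 147 and 2.27 ± 0.52 normalized counts in the p53 wild-type lines and at 1227 ± 159 and 0 in the p53-deleted lines. Among 17 genes known to be driven by p63, 0 of 16 tested rose and 12 fell in p53 wild-type cells, and 1 of 15 rose and 13 fell in p53-deleted cells, again beside 12.7% and 28.3% of all genes that fell, with medians of -2.60 and -2.42. FAT2 and FGFR2 in p53 wild-type cells and KRT14 and FGFR2 in p53-deleted cells reached the minimum in no H-Ras library and so had to differ. With no minimum, 12 of 17 and 13 of 16 fell, again beside 6.84% and 15.9%. FAT2, a large protocadherin, fell by 7.31 and fell by 6.92 in the same order (adjusted p = 3.83e-06 and 4.66e-10). COL17A1, a hemidesmosome collagen, fell by 3.59 in p53 wild-type cells (adjusted p = 3.83e-06) and fell by 7.78 in p53-deleted cells (adjusted p = 9.52e-13). FGFR2 fell by 4.73 and fell by 3.82 (adjusted p = 4.33e-05 and 8.41e-08), and TRIM29 fell by 4.24 and fell by 2.06 (adjusted p = 2.61e-05 and 3.11e-08). KRT14 fell by 3.99 and fell by 5.99 (adjusted p = 0.00112 and 2.38e-07). DST rose by 0.93 in p53-deleted cells (adjusted p = 1.17e-05), with a p53 wild-type difference of -0.09 (adjusted p = 0.796). KRT5 could not be solved into single libraries in the p53-deleted vector line and was not tested there.

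Of 11 genes whose exons ESRP1 and ESRP2 choose, 1 rose and 4 fell of 10 tested in p53 wild-type cells, where 25.6% of all genes were called, and 4 rose and 6 fell of 11 in p53-deleted cells, where 56.1% were, at the level of whole genes. FGFR2 and, in p53 wild-type cells, GRHL1 and, in p53-deleted cells, NFASC had no H-Ras library at the minimum. Gene counts hold no exon usage, so the splicing of these genes was not measured. FGFR2 fell in both, GRHL1 is among them too, CTNND1 fell by 1.05 and fell by 1.25 (adjusted p = 0.000318 and 4.58e-07), and NFASC fell by 4.27 in p53-deleted cells (adjusted p = 5.73e-06) and was not tested in p53 wild-type cells. NUMB rose by 0.82 and 0.88 (adjusted p = 0.00291 and 1.22e-05), and in p53-deleted cells MAGI1 rose by 1.68 and SLK by 0.47 (adjusted p = 1.96e-07 and 0.00458). Of 15 other regulators of the epithelial or mesenchymal exon choice, 12 were tested, 2 rose and 1 fell in p53 wild-type cells, and 2 rose and 7 fell in p53-deleted cells, beside 25.6% and 56.1% of all genes called in either direction. QKI, which favours mesenchymal exons, rose by 0.41 and 0.38 (adjusted p = 0.0288 and 0.002), with the former lost in 4 of 13 alternatives. RBFOX2 rose by 0.34 (adjusted p = 0.029, lost in 5 alternatives) and RBM38 fell by 1.21 (adjusted p = 0.0131, lost in 4) in p53 wild-type cells. RBM38 also fell by 0.39 in p53-deleted cells (adjusted p = 0.0209, lost in 3 of 12). In p53-deleted cells MBNL1 rose by 0.92 (adjusted p = 1.01e-05), and MBNL3, PTBP1 and MBNL2 fell by 1.22, 0.77 and 0.64 (adjusted p = 4.69e-05, 9.39e-06 and 0.00035).

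The epithelial label was checked against markers. The deposited means of 8 basal markers summed to 74920.5 and 21241 normalized counts in the p53 wild-type vector and H-Ras lines and to 102518 and 23097 in the p53-deleted ones, with KRT17 under 10 in both H-Ras lines and KRT14 under 10 in the p53-deleted H-Ras line. KRT5 was the largest of them in the vector lines and LAMB3 in the H-Ras lines. LAMB3 stood at 7408 and 9595 in the p53 wild-type lines (adjusted p = 0.109) and ITGB4 at 10954 and 8557 in the p53-deleted ones (adjusted p = 0.0686). With H-Ras, 7 of 8 tested fell in p53 wild-type and 6 of 7 in p53-deleted cells, where 12.7% and 28.3% of all genes did. Most of these markers, among them KRT5, KRT14, ITGB4, LAMB3 and COL17A1, are also in the list of genes driven by p63. The 2 counts are therefore not separate findings. KRT17 in both backgrounds and KRT14 in p53-deleted cells reached the minimum in no H-Ras library and so had to differ. The 9 luminal markers summed to 35518 and 17786 in the p53 wild-type vector and H-Ras lines. In the p53-deleted vector and H-Ras lines they summed to 40407 and 21482. ELF5 was at 0 throughout and KRT19 under 10. KRT7 made up most of these sums, at 22812, 12770 and 29499 in the first 3 and 14987 in the last. With H-Ras, 7 of 7 luminal markers tested fell in p53 wild-type and 4 of 6 in p53-deleted cells, where 12.7% and 28.3% of all genes did. Some of them, such as CDH1, were already counted among the genes known to depend on GRHL2, OVOL or ESRP factors. ESR1 reached the minimum in no H-Ras library and so had to differ. With no minimum, 7 of 8 and 5 of 7 fell, beside 6.84% and 15.9%. MUC1 fell by 1.35 on the log2 scale in p53 wild-type cells (adjusted p = 0.0106). In p53-deleted cells it was the only 1 to rise, from 131 to 283 (adjusted p = 8.72e-05), and KRT8 had a difference of -0.07 on the log2 scale (adjusted p = 0.491). Some markers of other cell types differed with H-Ras too. The 8 fibroblast markers summed to 216 to 318 per library in the p53 wild-type vector line and 2931 to 4666 with H-Ras, and to 452 to 824 and 11999 to 17884 in p53-deleted cells, carried by DCN and COL6A3. COL1A2 and COL3A1 were at 0 in all groups, and LUM was at 0 in both p53-deleted lines. In p53 wild-type cells LUM rose from 1.82 to 14.3 (adjusted p = 0.0132, lost in 2 of 13 alternatives). It reached the minimum in no vector library there and so had to differ. PDGFRA had means of 0.292 and 9.31 in p53 wild-type and 0.994 and 9.31 in p53-deleted cells and was not tested for H-Ras. COL1A1 went the other way, from 108 to 36.5 normalized counts in p53 wild-type and from 109.6 to 59.0 in p53-deleted cells (adjusted p = 0.00746 and 0.00316). The 6 endothelial markers summed to 167 to 202 and 657 to 837 in p53 wild-type cells and to 79.2 to 110.1 and 557 to 617 in p53-deleted cells, carried by ROBO4 and KDR, with PECAM1 at 0. KDR rose from 20.5 to 107 and from 33.0 to 204 (adjusted p = 0.00559 and 9.99e-06), and CDH5 went the other way, with means of 16.2 and 1.61 in the p53 wild-type lines, and was not tested. The 6 leukocyte markers summed to 321 to 935 and 530 to 1385 in p53 wild-type cells and to 140 to 161 and 760 to 914 in p53-deleted cells, with overlap in p53 wild-type cells and with PTPRC and CD3E at 0. Of that list, LAPTM5 rose in both backgrounds (adjusted p = 0.000541 and 9.82e-09), CSF1R fell in both (adjusted p = 0.0441, lost in 7 of 13 alternatives, and 2.22e-05), and CD14 rose in p53-deleted cells (adjusted p = 0.000141) and had an adjusted p of 0.895 where p53 was wild-type. In p53-deleted cells CSF1R reached the minimum in no H-Ras library and so had to differ there. The part of these markers in the levels of the 10 genes was not tested.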

How the data were processed

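Polyadenylated RNA was sequenced from 12 MCF10A libraries. The tools named for the GRCh37 build are HTSeq, TopHat, SAMtools, Trimmomatic and FastQC, per the submitters' processing notes. For versions, annotation, strand setting and normalization tool, the entry is "not given in the sources used here".

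For each p53 background the authors deposited 1 table. Each holds, per the file headers, a mean signal for the vector and the H-Ras line, a fold change (their ratio) and p-values with adjusted values. From the values, the deposited signal averages counts after division by a size factor that each library has within its table. In the p53 wild-type table the number in both group headers differs from that in the table's own name, and the columns were taken as its vector and H-Ras groups.

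Whole reads of the 3 libraries of a group were solved from each 15-digit mean, because each read of a library adds a fixed step. The search covered every split where the mean was at most 1000. For larger means a library could lie at 0.2 to 2.5 times the mean, narrowed to 0.5 to 1.6 times over 20000 or if several splits were left, and means above 60000 were not attempted. A unique split was found for 99.83% to 99.98% of genes above 0 per group. None of 2000 shifted means per group was solved, and the search was also tested on simulated means. Size factors recomputed from solved reads matched within 0.045%. Genes without a unique split, such as KRT5 and KRT7 in the p53-deleted vector line, were not tested there.

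Log2(normalized count + 1) was fitted with limma 3.58.1 (mean-variance trend) in R 4.3.3, on genes that reached 10 normalized counts in 3 or more of the libraries fitted. Benjamini-Hochberg adjusted p under 0.05 over all genes tested was called, two-sided. Each H-Ras comparison was fitted on its own 6 libraries and the difference of responses on all 12. Comparisons between p53 backgrounds, group orders and profile likeness used median-of-ratios factors over the 12 libraries, and levels are on the table scale unless said otherwise. The p53 wild-type H-Ras fit and the difference fit were tested on simulated data with known changes, most of which they called at each size tried. The simulated reads had 1 setting of spread for all genes and no library that stood apart. Changes were placed only in genes well above the minimum, so the simulation does not test the fit for low genes or outlying libraries. Counting intervals are exact 95% intervals, and intervals and floors cover counting error only. Per-kilobase levels used GENCODE 29 exons, which are not the authors' annotation. Python 3.11.15, NumPy 2.4.6, SciPy 1.17.1 and Matplotlib 3.10.9 were used.

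The 10 genes and all gene lists were chosen with earlier results of these data known. Named were the 10 genes, HRAS, the 3 largest called changes per list, direction and H-Ras comparison, list genes of opposite direction, the 3 nearest profiles (group mean of at least 100) for the most abundant gene of each family, and coding genes that overlap a member. STPG1, SNX5, MGME1, NFATC3 and the single markers of cell types were added after the data were seen. Some genes that this rule names are not reported here.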

Additional observations from a re-analysis of the deposited data

Results flagged for a closer look

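The interaction test in limma, of the p53-deleted minus the p53 wild-type H-Ras response on the log2 scale, passed the threshold for 7 of the 10 genes and for SNAI2. EHF had the largest of the 10, -4.58, with both responses downward and the p53-deleted one far deeper. KLF5 differed by -0.819. GRHL2 and OVOL1 had values of -1.91 and -2.45, but both H-Ras groups held 3 reads or fewer, so these values rest on the vector levels and the pseudocount and measure no difference of responses. ELF3 differed by 2.49 and ESRP1 by 2.04, with the deeper fall in p53 wild-type cells. GRHL3 differed by 1.63, with a fall in p53 wild-type cells and a difference of 0.45 that missed the threshold in p53-deleted cells. SNAI2 differed by -2.97, with a rise in p53 wild-type and a fall in p53-deleted cells. Each p53 background is 1 pair of lines, so p53 and the pair of lines cannot be told apart.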

How the results depend on the processing

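Of 777 results for the 10 genes under the alternatives, 702 kept direction and side of the threshold, 55 lost the call, 9 gained it and 11 changed sign, none of which passed the threshold before or after. The sign changes were the TP63 difference of responses, 0.22, at -0.44 without p53 wild-type H-Ras A and -0.03 without p53-deleted H-Ras B, and values between the H-Ras lines. There TP63, 0.12, turned to -0.00506 with a pseudocount of 4, -0.56 without p53 wild-type H-Ras A and -0.12 without p53-deleted H-Ras B. OVOL1, -0.02, turned to 0.14 without p53-deleted H-Ras A or B and 0.33 without p53 wild-type H-Ras C, alone or with vector A. OVOL2, 0.16, turned to -0.18 without p53 wild-type H-Ras A and -0.19 without p53-deleted H-Ras B. The highest or lowest leave-one-out values on the other side were 0.56 for the TP63 difference of responses and, between the H-Ras lines, 0.47 for TP63, -0.35 for OVOL1 and 0.58 for OVOL2. The cause was not tested. The 55 lost were calls of GRHL3 and EHF in p53 wild-type cells, GRHL2 and ELF3 in the difference of responses and between lines, and KLF5 between the H-Ras lines. Leaving out 1 library in turn gave 1821 to 4275 called genes for H-Ras in p53 wild-type cells against 3190 with all libraries, and 7 to 8 of the 10 genes against 9. The same ranges were 6136 to 7053 and 9 to 10 in p53-deleted cells, 1492 to 2245 and 7 to 7 for the difference of responses, 3439 to 4968 and 4 to 7 between the vector lines, and 3897 to 5433 and 4 to 6 between the H-Ras lines, against 7 with all. The lowest counts in p53 wild-type cells came without vector B (1940) and H-Ras A (1911) or B (1821), for the difference of responses without p53-deleted H-Ras C (1492), and between the H-Ras lines 4 genes were called without p53 wild-type or p53-deleted H-Ras B. Without p53 wild-type vector A and H-Ras C, 7246 genes were called in p53 wild-type cells, and the cause was not tested. The group order and the nearest profiles were unchanged under total-read scaling. No paired analysis was possible because the deposited tables hold group means and the solved libraries carry no replicate number. Levels of 0 to 3 reads per library limit what can be said of TP63, GRHL2, OVOL1 and OVOL2 with H-Ras, and of ELF3 in p53 wild-type cells.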
